A study of Homo sapiens with 18 samples.

Results

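The complement components and regulators described here are 9 of the 38716 gene symbols in the tables of a study of cultured human lung fibroblasts. They were chosen by name and not by a rule on measured values, although earlier results of these data were known. They are the proteases C1R and C1S of the classical pathway, the central component C3 and complement factor B (CFB). The others are the inhibitors CFI and SERPING1, and the membrane-bound protectors CD46, CD55 and CD59. All 9 were found in the tables. The cells were IMR90, a line started from human fetal lung, and all groups share this line. The young group was dividing IMR90 of low passage. The old group was IMR90 passaged until replicative senescence. The ICM group was IMR90 of low passage kept for 6 days in inflachromene (ICM), a compound known to bind HMGB1 and HMGB2, which are proteins of chromatin. Its dose in these libraries, and whether their young cells received the solvent, were not given in the sources used here. Each group had 3 lysates from separately grown cultures, and each lysate gave one Ribo-seq library, which reads the mRNA fragments protected by ribosomes (footprints), and one mRNA-seq library of poly(A) RNA. The study's text says that its comparison data for old cells had been generated earlier, while its methods describe the 3 conditions together, so a batch between old and the others cannot be told apart from the condition.

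Complement is a cascade of plasma and membrane proteins that marks microbes and damaged cells. In the classical pathway, the protease C1r activates C1s, which starts the cleavage steps that lead to C3, and factor B carries the alternative pathway that amplifies C3 cleavage. Host cells are protected by secreted inhibitors, such as C1 inhibitor (SERPING1) and factor I (CFI), and by membrane proteins that stop C3 deposition (CD46, CD55) or the membrane attack complex (CD59). The liver makes most plasma complement, but fibroblasts are a known local source of several components.

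The genes lie in few places of the genome (GRCh37 coordinates, GENCODE annotation lifted to that build). C1S (chromosome 12, 7096351 to 7178336, plus strand) and C1R (chromosome 12, 7187513 to 7245203, minus strand) are neighbours, with 9177 bases between them. CD55 (chromosome 1, 207494864 to 207560149) and CD46 (chromosome 1, 207925382 to 207968858) lie on the same strand, 365233 bases apart. The remaining genes lie apart from one another: C3 (chromosome 19, 6677715 to 6730573), CFB (chromosome 6, 31913427 to 31919863), CFI (chromosome 4, 110652164 to 110723306), SERPING1 (chromosome 11, 57364860 to 57386644) and CD59 (chromosome 11, 33724556 to 33758025). Several overlap another coding gene, namely C1R with C1RL, C1S with LPCAT3 on the other strand, C3 with GPR108 and CFB with C2. CFB, CFI, CD59 and C1S each also overlap a coding gene model without a symbol on the same strand. How reads in such overlaps were divided was not given in the sources used here, so small values of these genes are uncertain.

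Promoter sequence was at hand for 6 of the 9 genes (C1R, CFB, CFI, CD46, CD55 and CD59, RefSeq, GRCh38.p14, 11 start sites, 300 bases each). Promoters of C1S, C3 and SERPING1 were not analysed here. Complement genes are classic targets of interferon, whose gamma-activated sequence (GAS) motif was written TTCNNNGAA, so the stretch around it is shown for each member whose promoter holds it. Of the 11 promoters, 4 held it, in 3 genes, against 7.66% of all 35116 promoters of this length. Overlapping promoters of a gene can share a site, and the 4 promoters hold only the 3 sites shown. Motif letters are in capitals, and each line gives the strand of the gene from 5′ to 3′:
C1R: cagtcctaTTCCTGGAAggggaggg
CFB: cttggatgTTCCGGGAAagtgatgt
CD59: acccggccTTCTCAGAAcctgggcc
They lie at chr12:7091963-7091987 (minus strand), chr6:31945995-31946019 (plus strand) and chr11:33736591-33736615 (minus strand) of GRCh38.p14, with the C1R, CFB and CD59 matches starting 86, 92 and 128 bases before the start site. The interferon-stimulated response element, searched on both strands as GAAA, any 2 bases and GAAA, was in 1 of the 11 promoters, that of CFB (3.57% of all promoters), on the opposite strand:
CFB: ttctgcagTTTCTGTTTCcttgactg
That stretch is at chr6:31945947-31945972, plus strand. Other searches on both strands were 2 NF-κB forms, GGG with any 2 bases and TTTCC (1.91% of all promoters) and GGG with any 3 bases and TTCC (6.52%, the first being a case of it), the C/EBP form TTGCGCAA (0.151%) and the E2F form TTTCGCGC (0.515%), which had no match in the 11 promoters, and CCAAT, found in 6 of them and in 34.6% of all. A match only says that these letters are present.

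The assays differed in depth. mRNA-seq libraries held 7902427 to 14144455 reads in coding genes, and Ribo-seq libraries held 46239 to 1718521 reads in coding sequence (CDS), a 37.2-fold range. Young replicate 1 and old replicate 2 of Ribo-seq stood apart, with 34.4% and 15.0% of reads in the CDS. Their summed footprint level of 7 genes high in ICM cells by mRNA-seq was 581 and 729 CPM (the CPM unit of edgeR, read counts scaled to 1 common library size after TMM adjustment). It was 61.6 to 82.5 in the other young and old libraries and 3691 to 5827 in ICM. The source of these reads was not tested, nor was their part in the results below beyond leaving both libraries out. The 3 ICM libraries were shallow, and ICM replicate 3 was the shallowest of all. All 10 fibroblast markers were above 1 CPM in every condition. Of 9 macrophage and monocyte markers only CD68 was, and the summed level of that list was 20.1 to 22 CPM in young, 33.3 to 36.6 in old and 54.7 to 66.8 in ICM. Fibroblast markers summed to 27363 to 32819 CPM in young and old and 12279 to 12774 in ICM. Epithelial markers, of which KRT8 and KRT18 were above 1 CPM, summed to 241 to 317 CPM in young and old and 44.5 to 50.6 in ICM. Endothelial markers summed to at most 4.66 CPM and hepatocyte markers to at most 0.697. The part of these shifts in the results was not tested. The samples are bulk lysates, so fewer cells that make an mRNA and less of it per cell cannot be told apart.

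The comparisons asked how the members changed with inflachromene, with replicative senescence, and between ICM and old cells. The first 2 share the young libraries. A gene was called at an adjusted p under 0.05 (edgeR quasi-likelihood test, Benjamini-Hochberg over all genes tested). In mRNA, all 9 members were called between ICM and young, 4 higher and 5 lower, where 71.0% of 13173 genes were called (34.9% up, 36.1% down). Between old and young 8 of 9 were called, 4 in each direction (66.2% of all genes, 32.4% up, 33.8% down), and between ICM and old 8 of 9, again 4 in each direction (63.3% of all genes, 30.7% up, 32.5% down). The libraries of the 2 groups did not overlap for 9, 8 and 7 members, in the same order, where 74.5%, 67.1% and 66.3% of all genes did not. Since most genes changed in these cells, the number called says little about the members, and the sizes and directions below carry the description. The median absolute log2 change of the members was 0.57 in ICM against young (0.46 over all genes), 1.15 in old against young (0.40) and 0.73 in ICM against old (0.35).

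**Figure D1:**
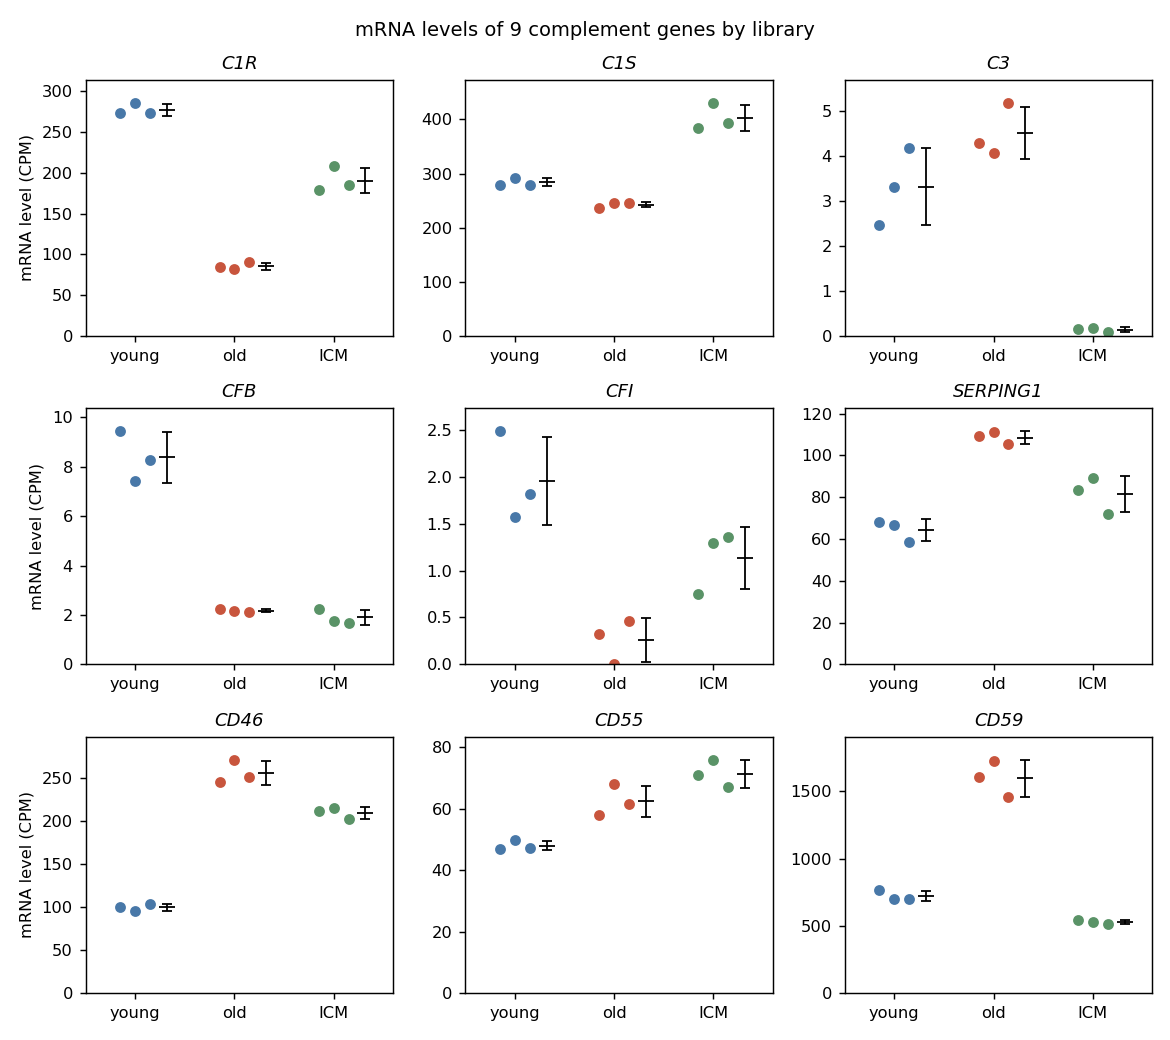
mRNA-seq level (CPM, y axis, each panel from 0 on its own scale) of the 9 members in the young, old and ICM libraries (points, 3 a condition), with the mean and SD beside them (n = 3). C1R is lowest in old, C3 is nearly absent in ICM, CFB is low and CD46 high in both old and ICM, and CD59 is highest in old and lowest in ICM.

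The order of the members was set by CD59, whatever the condition. Per kb of coding length, CD59 gave 867 ± 83.6 CPM of CDS reads in young (SD, n = 3), 1755 ± 177 in old and 606 ± 19.8 in ICM. In young it was followed by C1R (205 ± 4.03) and C1S (176 ± 1.24), then by CD46 (69.7 ± 5.92), SERPING1 (61.7 ± 5.17) and CD55 (51.9 ± 2.86). CFB (5.27 ± 0.701), CFI (1.59 ± 0.486) and C3 (1.00 ± 0.283) came last. The ranges of mean ± SD overlapped for the neighbours CD46 and SERPING1, and for CFI and C3. In old cells C1R dropped from the second place to the sixth (61.0 ± 3.22), next to CD55 (63.0 ± 5.69), from which it did not differ beyond the spread, and CD46 rose to second (173 ± 8.92). In ICM cells C1S was second (260 ± 13.6), with CD46 (154 ± 9.34) and C1R (146 ± 8.81) behind it, within one SD of each other. No MANE transcript was listed for C1R at GRCh37. Its coding length was that of its longest complete coding model in the same annotation, so its place per kb is uncertain.

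The initiating proteases parted. C1R mRNA was at 273, 286 and 274 CPM in the 3 young libraries, at 84.1, 82.2 and 90.5 in old, and at 178, 208 and 185 in ICM. No library of one condition reached those of another, and old was lowest, with ICM between. The log2 change was -1.70 (SE 0.068, adjusted p = 2.87e-16) in old against young, 3.24-fold lower, and -0.54 (SE 0.064, adjusted p = 6.46e-08) in ICM against young. ICM was above old by 1.15 on the log2 scale (SE 0.068, adjusted p = 2.48e-13). C1S, the protease that C1r activates, was at 280, 292 and 280 CPM in young, 237, 247 and 245 in old, and 384, 430 and 393 in ICM. The order of the conditions was therefore different, with ICM highest and old only a little below young. C1S rose in ICM by 0.50 on the log2 scale (SE 0.061, adjusted p = 8.57e-08) and fell by 0.23 in old (SE 0.061, adjusted p = 0.00250).

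The ratio of the 2 neighbours shows this within each library, where library size cancels. C1R reads per C1S read were 0.975, 0.976 and 0.979 in young, 0.355, 0.333 and 0.369 in old, and 0.465, 0.484 and 0.470 in ICM. The 3 conditions did not overlap, and each of the 3 two-sided exact permutation tests gave p = 0.1, the smallest that 3 libraries against 3 allow. The ratio was 2.77-fold lower in old and 2.07-fold lower in ICM than in young. With CDS reads alone it was 1.08 to 1.11 in young, 0.370 to 0.413 in old and 0.529 to 0.540 in ICM. This ratio was chosen after the values were seen. Footprints gave 1.31, 1.16 and 1.18 in young, 0.473, 0.333 and 0.407 in old, and 0.526, 0.323 and 1.19 in ICM. Old libraries lay below all young ones (exact permutation p = 0.1), while ICM overlapped young because of replicate 3, whose value comes from 19 C1R and 16 C1S reads.

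**Figure D2:**
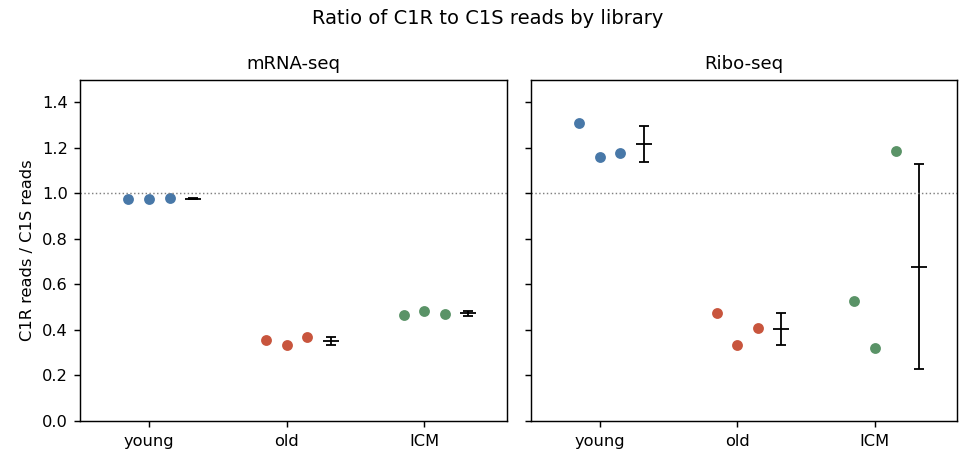
Reads of C1R divided by reads of C1S in each library (y axis, from 0), in mRNA-seq (left) and Ribo-seq (right), with mean and SD beside the 3 points of each condition; the dotted line marks equal reads. In mRNA-seq young libraries sit at 0.975 to 0.979, old at 0.333 to 0.369 and ICM at 0.465 to 0.484, and in Ribo-seq ICM replicate 3 is the one ICM library near the young level.

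C3, the component on which the pathways converge, was low in these fibroblasts and lower still with inflachromene. It was at 2.48, 3.31 and 4.19 CPM in young, 4.30, 4.07 and 5.19 in old, and 0.15, 0.185 and 0.0847 in ICM. The ICM values stand for 2, 2 and 1 reads. Young libraries held 20, 38 and 44 reads of C3 and old ones 40, 55 and 56, so ICM lay apart from both. The log2 change was -4.50 in ICM against young (SE 0.397, adjusted p = 3.94e-10) and -4.91 against old (SE 0.365, adjusted p = 2.24e-11). From the pooled reads C3 was 24.0-fold lower than in young, with a counting interval of 9.93 to 75.3 (95%, exact). Old against young did not pass the test (0.41, SE 0.191, adjusted p = 0.0640). That call changed without young replicate 3 (0.60, adjusted p = 0.0188) and without old replicate 2 (0.49, adjusted p = 0.0468), and with CDS reads alone (0.46, adjusted p = 0.0468).

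CFB, the protease of the alternative pathway, fell in both old and ICM cells. Its mRNA was at 9.42, 7.41 and 8.29 CPM in young, 2.26, 2.15 and 2.13 in old, and 2.25, 1.76 and 1.69 in ICM. Old and ICM overlapped, and both were well below young. The log2 change was -2.10 in ICM (SE 0.174, adjusted p = 1.19e-10) and -1.92 in old (SE 0.173, adjusted p = 7.44e-10), and between ICM and old -0.18 (SE 0.227, adjusted p = 0.531). Both falls are relative to the same young libraries. CFB overlaps C2, whose values were 1.70 ± 0.389 CPM in young, 1.20 ± 0.339 in old and 4.30 ± 0.572 in ICM (SD, n = 3).

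CFI, a secreted protease that cuts C3b and C4b into inactive forms, was the rarest inhibitor. It was at 2.48, 1.57 and 1.81 CPM in young, 0.322, 0 and 0.463 in old, and 0.751, 1.29 and 1.36 in ICM. These are 57, 8 and 40 reads per condition, and old lay below both others. The log2 change was -2.94 in old against young (SE 0.488, adjusted p = 1.20e-05), and from the pooled reads the level was 8.50-fold lower, with a counting interval of 4.03 to 20.6. ICM was above old by 2.17 on the log2 scale (SE 0.537, adjusted p = 0.00115). ICM against young was at the limit (-0.77, SE 0.339, adjusted p = 0.0476) and was lost without young replicate 1 (adjusted p = 0.176), young replicate 3 (0.0720), ICM replicate 1 (0.218) or ICM replicate 2 (0.0529). It was also lost with RLE scaling (adjusted p = 0.0502) and by DESeq2 (0.117).

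SERPING1, the inhibitor of C1r and C1s, moved against C1R in old cells. Its mRNA was at 68.2, 66.6 and 58.4 CPM in young, 109, 111 and 105 in old, and 83.6, 89.2 and 72.1 in ICM. Old was highest, ICM between, and no condition overlapped another. SERPING1 rose by 0.76 on the log2 scale in old (SE 0.077, adjusted p = 6.75e-09) and by 0.34 in ICM (SE 0.078, adjusted p = 0.000392), and ICM was below old by -0.41 (SE 0.074, adjusted p = 3.91e-05).

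Among the membrane protectors, CD46, the cofactor with which factor I cuts C3b on the cell surface, rose in both old and ICM cells. It was at 100, 95 and 104 CPM in young, 245, 271 and 252 in old, and 212, 215 and 202 in ICM. Young was apart from both, at less than any old or ICM library. The log2 change was 1.36 in old (SE 0.064, adjusted p = 4.99e-15) and 1.07 in ICM (SE 0.063, adjusted p = 2.00e-13), with ICM lower than old by -0.29 (SE 0.061, adjusted p = 0.000209). CD55, its neighbour on the chromosome, speeds the decay of C3 convertases. It was at 47.0, 49.8 and 47.2 CPM in young, 57.9, 68.0 and 61.4 in old, and 71.2, 75.9 and 66.9 in ICM. It rose less, with a log2 change of 0.38 in old (SE 0.075, adjusted p = 0.000103) and 0.57 in ICM (SE 0.074, adjusted p = 3.06e-07). ICM and old overlapped, and their difference of 0.19 (SE 0.072, adjusted p = 0.0269) was lost without old replicate 1 (adjusted p = 0.149), old replicate 3 (0.0635), ICM replicate 1 (0.0626) or ICM replicate 2 (0.136).

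CD59, which blocks assembly of the membrane attack complex, took opposite directions in the 2 states. Its mRNA was at 763, 701 and 696 CPM in young, 1605, 1729 and 1457 in old, and 540, 530 and 511 in ICM. All old libraries were above all young ones, and all ICM libraries below. CD59 rose in old by 1.15 on the log2 scale (SE 0.067, adjusted p = 3.49e-13), changed by -0.45 in ICM (SE 0.067, adjusted p = 2.23e-06), and was 3.03-fold lower in ICM than in old (-1.60, SE 0.068, adjusted p = 4.74e-16). The other membrane protectors rose in ICM. CD59 reads per CD46 read were 6.72 to 7.59 in young, 5.78 to 6.54 in old and 2.46 to 2.55 in ICM. In footprints this ratio was 2.1 to 4.56 in young, 3.13 to 3.99 in old, and 0.639, 0.857 and 8.5 in ICM. ICM thus overlapped both, and its last value rests on 17 CD59 and 2 CD46 reads. Like the C1R to C1S ratio, this ratio was not planned beforehand.

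The position of mRNA reads within the transcript was compared too, as the share of a gene's reads in its 3′ UTR. CD59, with a long 3′ UTR, had 57.2%, 58.0% and 56.1% of its reads there in young, 61.0%, 61.8% and 61.6% in old, and 60.6%, 58.6% and 57.9% in ICM. Old was above all young and all ICM libraries (exact permutation p = 0.1 each, the smallest possible), and ICM overlapped young (p = 0.2, exact permutation). Groups did not overlap in this share for 12.8% of 8059 genes in old against young, 16.6% in ICM against old and 20.2% in ICM against young. The 3′ UTR share over all coding reads was also higher in old, at 26.8% to 28.9% against 24.7% to 25.1% in young. The shares of C1R, C1S, SERPING1, CD46 and CD55 overlapped in all 3 comparisons. C3, CFB and CFI had fewer than 100 reads in a library and were left out.

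Footprints could be tested for 6 members. C3, CFB and CFI were below the filter on low counts, with 17, 29 and 6 footprints over the 3 young libraries, 22, 7 and 0 over old and 1, 1 and 0 over ICM. CFB footprints were 3.90-fold lower (as CPM) in old than in young, with a counting interval of 1.67 to 10.5, but with no filter on low counts the edgeR test across libraries did not pass (-1.63, SE 0.688, adjusted p = 0.0933). For ICM the counting interval of the C3 ratio to young ran from 0.00988 to 2.63 and that of CFB from 0.00592 to 1.46, so a change was not detectable at this depth. The 0 footprints of CFI allow up to 1.30 CPM in old and 8.57 in ICM (3 counts over the group), against 2.44 in young. Intervals cover counting error only.

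Of the 6 tested members, 3 were called in footprints between ICM and young, 2 up and 1 down (26.6% of 4643 genes, 13.6% up, 12.9% down). Between old and young 4 were called, 3 up and 1 down (36.2% of all genes, 19.3% up, 17.0% down), and between ICM and old 2, 1 each way (13.4% of all genes, 5.79% up, 7.65% down). Libraries did not overlap for 1, 4 and 1 of the 6 (30.0%, 38.9% and 23.0% of all genes).

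**Figure D3:**
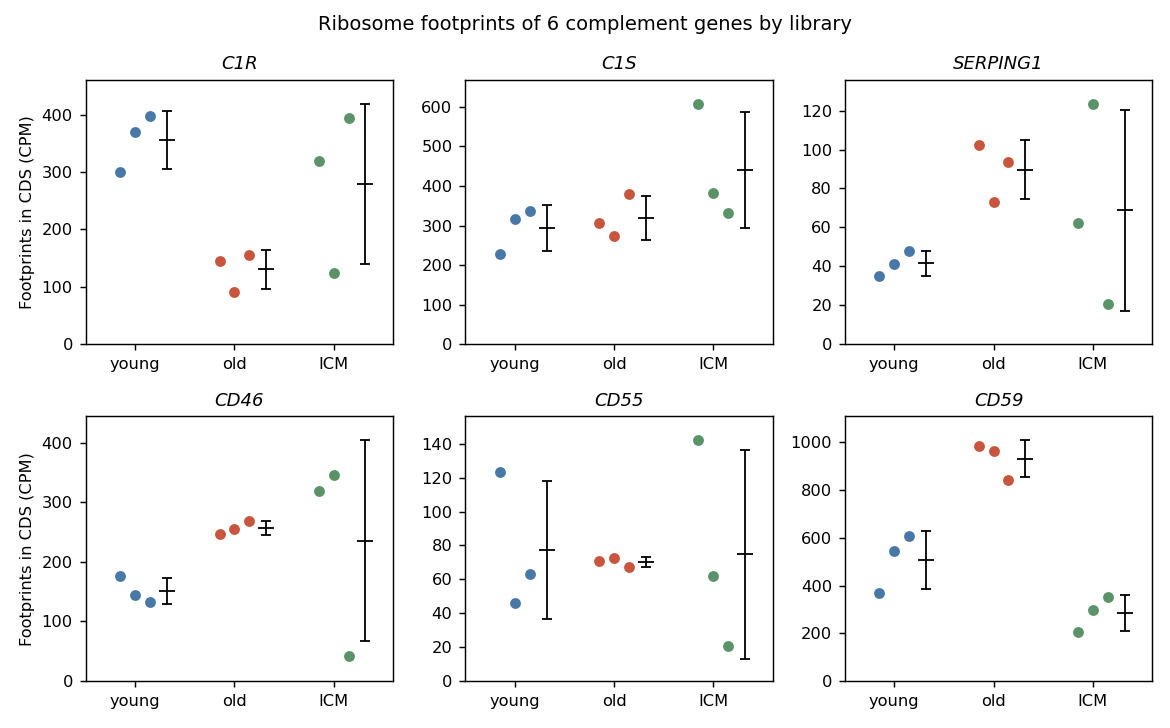
Ribo-seq level of the 6 members tested (CPM of CDS footprints, y axis, each panel from 0 on its own scale), with 3 libraries a condition as points and their mean and SD beside them (n = 3). The SD is largest in ICM for every gene shown except CD59, where it is largest in young, and CD59 is the gene whose ICM libraries lie below all others.

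C1R footprints were at 299, 369 and 398 CPM in young, 144, 91.1 and 155 in old, and 320, 124 and 394 in ICM. Old was below every young library, and ICM spanned both. The fall in old was -1.39 on the log2 scale (SE 0.219, adjusted p = 4.92e-06), and without young replicate 1 and old replicate 2 together it was -1.36 (adjusted p = 1.45e-08). ICM against young was not called (-0.44, SE 0.251, adjusted p = 0.205) but was called without ICM replicate 3 (-0.64, adjusted p = 0.0469). ICM was above old by 0.95 (SE 0.274, adjusted p = 0.0140), a call that was lost without old replicate 1 (adjusted p = 0.0945), old replicate 3 (0.0518), ICM replicate 1 (0.414) or ICM replicate 3 (0.0566), by DESeq2 (0.0554), with no filter (0.120) and thinned to the shallowest library (0.189).

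C1S footprints were at 229, 317 and 338 CPM in young, 306, 273 and 381 in old, and 608, 383 and 332 in ICM. All conditions overlapped. The rise in ICM (0.60, SE 0.222, adjusted p = 0.0417) did not stand without young replicate 1 (adjusted p = 0.0991), young replicate 2 (0.215), young replicate 3 (0.153) or ICM replicate 1 (0.914), nor without young replicate 1 and old replicate 2 together (0.155). It was lost as well by DESeq2 (adjusted p = 0.190), with no filter (0.355), with the compared conditions alone (0.0801), with the replicate block (0.155) and thinned to the shallowest library (0.425). Old against young gave 0.04 (SE 0.200, adjusted p = 0.881).

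SERPING1 footprints were at 35.2, 41.4 and 47.9 CPM in young, 103, 72.9 and 93.4 in old, and 62.1, 124 and 20.7 in ICM, the last from 1 read. Old lay above young by 1.09 on the log2 scale (SE 0.268, adjusted p = 0.00171). That call was lost without young replicate 2 (adjusted p = 0.110), young replicate 3 (0.0798) or old replicate 1 (0.134), and also by DESeq2 (0.165) and with the replicate block (0.0813), while it was kept without young replicate 1 and old replicate 2 (1.12, adjusted p = 0.00126).

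CD46 footprints were at 176, 144 and 133 CPM in young, 247, 255 and 269 in old, and 320, 346 and 41.5 in ICM, where the last value is 2 reads. Old was above young throughout, and ICM was so in 2 of 3 libraries. The log2 change was 0.85 in old (SE 0.229, adjusted p = 0.00385) and 0.97 in ICM (SE 0.280, adjusted p = 0.00873). In old it was lost without young replicate 2 (adjusted p = 0.111), young replicate 3 (0.192), old replicate 1 (0.0567) or old replicate 3 (0.0780), and in ICM without young replicate 2 (0.108), young replicate 3 (0.181) or ICM replicate 1 (0.308). By DESeq2 neither passed (adjusted p = 0.15 in old and 0.138 in ICM), nor did either with the replicate block (0.0679 and 0.120) or thinned to the shallowest library (0.651 and 0.977), and ICM was also lost with no filter on low counts (0.0854). CD55 footprints were at 123, 45.7 and 63.3 CPM in young, 70.9, 72.9 and 67.3 in old, and 142, 61.8 and 20.7 in ICM. The ICM values stand for 32, 5 and 1 reads. They overlapped in every comparison and none was called. The log2 changes were 0.78 in ICM against young (SE 0.389, adjusted p = 0.141), 0.21 in old against young (SE 0.291, adjusted p = 0.598) and 0.57 in ICM against old (SE 0.386, adjusted p = 0.377). The first 2 are positive although mean CPM was highest in young (77.4, against 70.4 in old and 74.8 in ICM), so their direction is uncertain.

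CD59 had the most footprints and the clearest pattern. It was at 370, 543 and 609 CPM in young, 985, 966 and 843 in old, and 204, 296 and 352 in ICM. The 3 conditions did not overlap, in the same order as in mRNA. CD59 footprints changed by -1.10 (log2) in ICM against young (SE 0.235, adjusted p = 0.000498) and were lower in ICM than in old by -1.84 (SE 0.231, adjusted p = 1.31e-07), and both calls stood without any one library. The rise in old (0.74, SE 0.179, adjusted p = 0.00139) missed the threshold without old replicate 1 (adjusted p = 0.0532) and thinned to the shallowest library (0.132).

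**Figure D4:**
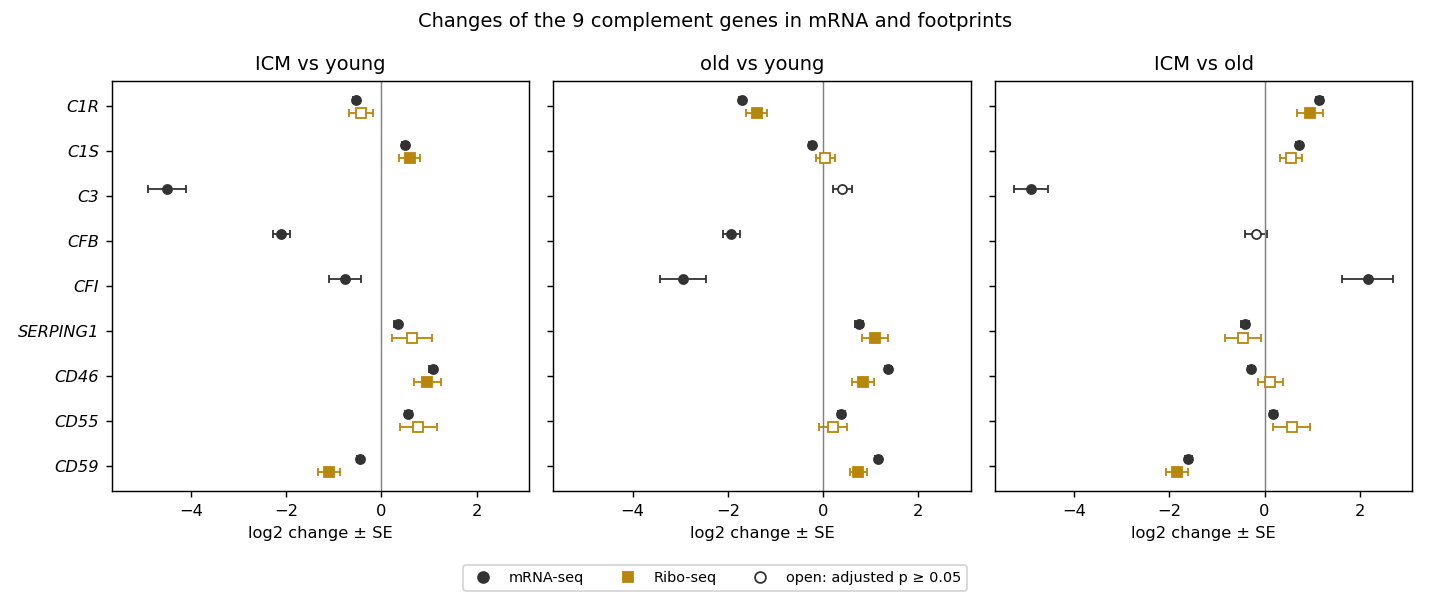
Log2 change with SE (x axis) of each member in the 3 comparisons, for mRNA-seq (circles) and Ribo-seq (squares). Filled symbols passed an adjusted p under 0.05, and C3, CFB and CFI have no square because their footprints were below the filter. CD59 lies on opposite sides of 0 in ICM and old against young, and the falls of C3, CFB and CFI are the widest.

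For translational efficiency, footprints relative to mRNA, one model held both assays and its assay-by-condition term was tested. None of the 6 members was called in any comparison by edgeR, and none by DESeq2, where edgeR called 2.34% of 4618 genes in ICM against young (1.32% up, 1.02% down), 1.43% in old against young (0.693% up, 0.736% down) and 0.325% in ICM against old (0.152% up, 0.173% down). At an unadjusted p under 0.05 there was 1 member, CD59, in each of the first 2 comparisons and 0 in the third. The share of all genes under that unadjusted threshold is not reported here, so the count says nothing about the members as a set. For CD59 the log2 change in efficiency was -0.68 in ICM against young (SE 0.247, adjusted p = 0.141) and -0.40 in old against young (SE 0.190, adjusted p = 0.378). The first passed the threshold without young replicate 1 (-0.86, adjusted p = 0.0421), without ICM replicate 3 (-0.90, adjusted p = 0.0464) and without young replicate 1 and old replicate 2 together (-0.93, adjusted p = 0.0150). Its footprint-to-mRNA ratio was 1.04, 1.74 and 2.00 in young, 1.38, 1.30 and 1.26 in old, and 0.872, 1.27 and 1.64 in ICM, so the conditions overlapped. The other 5 members had log2 changes in efficiency between -0.49 (CD46, old against young, SE 0.244) and 0.35 (CD46, ICM against old, SE 0.282).

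Other genes of the pathway, from activators to receptors and fluid-phase regulators, were read beside the members. Of 53 such genes, 13 had no read in any mRNA-seq library, 20 could be tested and 14 reached 5 CPM in at least one condition. In mRNA 18 of 20 were called in ICM against young (12 up, 6 down, with 71.0% of all genes called), 11 in old against young (6 up, 5 down, 66.2% of all genes) and 18 in ICM against old (12 up, 6 down, 63.3% of all genes). Their median log2 change was 0.71, 0.06 and 0.40, against -0.01, -0.01 and -0.01 over all genes. The first subcomponents C1QA, C1QB and C1QC, which C1r and C1s bind in plasma, were at 0 reads in every library, as were C4B and the receptor CR2.

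CFHR3, a gene of a family of near-identical copies, changed by 2.12 on the log2 scale in ICM against young (SE 0.223, adjusted p = 8.76e-09), and since reads could have been divided among copies its value is uncertain. Clusterin (CLU), which binds the membrane attack complex in fluid, was at 415, 434 and 404 CPM in young, 438, 457 and 438 in old, and 2063, 2139 and 2059 in ICM. It was 5.0-fold higher in ICM than in young (2.32, SE 0.062, adjusted p = 3.72e-20) and 4.33-fold higher in footprints (2.11, SE 0.177, adjusted p = 1.40e-11). PTX3, a pattern recognition molecule that binds C1q, went the other way, from 181 ± 7.86 CPM in young (SD, n = 3) to 242 ± 9.85 in old and 34.6 ± 0.637 in ICM. The fall in ICM was -2.39 (SE 0.067, adjusted p = 1.13e-19). PTX3 is also among the secreted markers that the study itself picked out. C7, a component of the membrane attack complex, was 5.09-fold higher in old than in young (2.35, SE 0.128, adjusted p = 9.20e-14), at 26.1 ± 0.390 against 5.06 ± 1.12 CPM. The collectins split. COLEC10 rose in both (1.22 in old, SE 0.108, adjusted p = 6.54e-10, and 1.69 in ICM, SE 0.103, adjusted p = 3.64e-13). COLEC12 fell in old (-1.87, SE 0.170, adjusted p = 9.01e-10) and rose in ICM (0.84, SE 0.117, adjusted p = 7.98e-07).

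**Figure D5:**
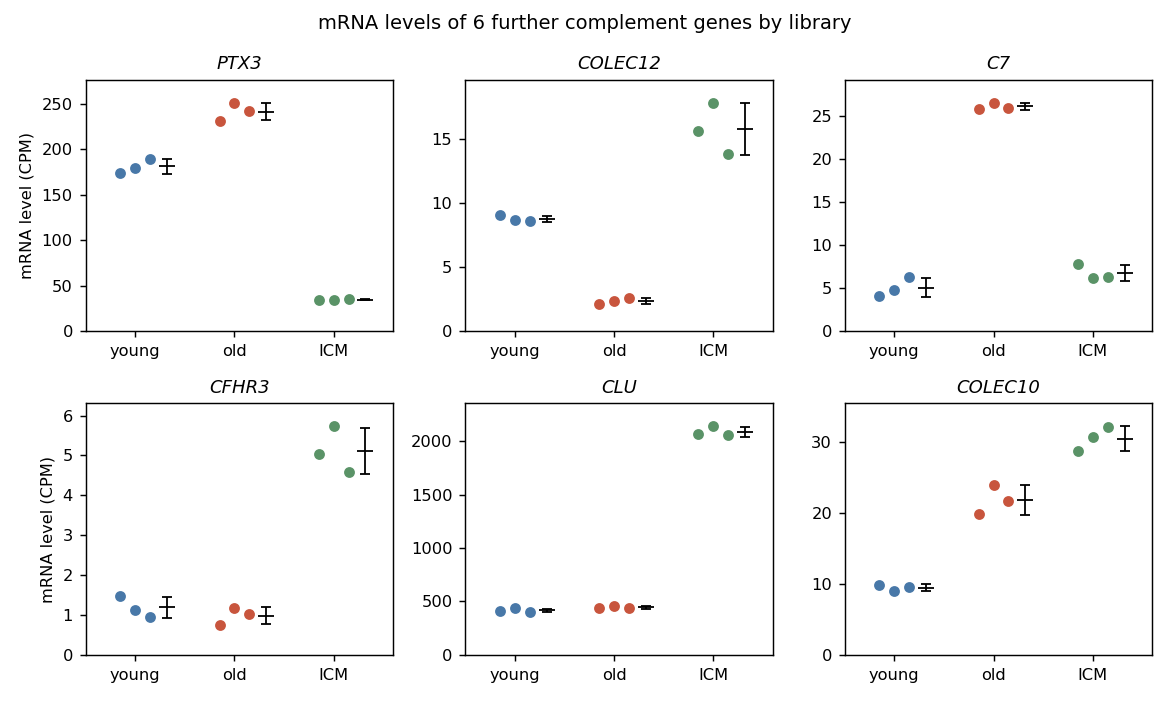
mRNA-seq level (CPM, y axis, each panel from 0 on its own scale) of 6 further complement genes in the young, old and ICM libraries, 3 points a condition with their mean and SD (n = 3). CFHR3, CLU, COLEC10 and COLEC12 are highest in ICM, C7 in old, and PTX3 is lowest in ICM.

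Genes of the cytokine and interferon pathways that are known to act on complement genes were counted as well, and all 18 were tested. In mRNA 12 were called in ICM against young (7 up, 5 down), 13 in old against young (6 up, 7 down) and 12 in ICM against old (6 up, 6 down), near the shares over all genes (71.0%, 66.2% and 63.3%). NFKB1 was lower in both, with log2 changes of -1.23 in ICM (SE 0.082, adjusted p = 2.10e-12) and -0.97 in old (SE 0.081, adjusted p = 2.36e-10), at 51.9 ± 3.16 CPM in young, 26.5 ± 2.22 in old and 22 ± 0.407 in ICM.

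The genes most alike in pattern to each member were taken as those with the highest Pearson r of log2(CPM + 1) over the 9 mRNA-seq libraries, among 11330 genes. For C1R these included PTGER2 (r = 0.995) and H2AFY2 (0.994), both highest in young and lowest in old. C1S was closest to IL1R1 (r = 0.994), HSD17B4 (0.993) and DPP4 (0.992). C3 was closest to LTBP2 (0.996), COL4A2 (0.996) and RUNX1 (0.995), CFB to FABP5 (0.994), SNRPA (0.994) and CBX2 (0.993), and CFI to ADAMTSL1 (0.992), TWIST2 (0.986) and SPOUT1 (0.981). SERPING1 was closest to SRFBP1 (0.993), RAB5B (0.989) and RNF10 (0.989), CD46 to GSG1 (0.998), SERPINB2 (0.998) and SARAF (0.998), CD55 to ANAPC5 (0.988), SLC31A1 (0.984) and SIAE (0.983), and CD59 to CHN1 (0.998), RSU1 (0.998) and FGF1 (0.996). The 9 points fall into 3 conditions of 3 libraries, so such values are common, and between 14 (CFI) and 539 (CFB) genes had an r over 0.95 with a member.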

How the data were processed

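The deposited tables hold estimated counts of each gene, split by region (5′ UTR, CDS, 3′ UTR and other classes), which the authors did not scale to depth. The submitters' processing notes name GRCh37, STAR 2.6.0c, featureCounts, DESeq2 and deepTools. Which of these made the tables, and how shared reads were divided, were not given in the sources used here. Between 14.1% and 23.2% of a library's non-zero values were not whole.

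The members, gene lists and motifs were chosen with earlier results of these data known. Groups and replicate numbers came from the sample titles. mRNA was taken as 5′ UTR, CDS and 3′ UTR reads and footprints as CDS reads, and estimated counts were rounded. edgeR 4.0.16 (R 4.3.3, TMM scaling, filterByExpr, glmQLFit, glmQLFTest) was fitted to all 9 libraries of an assay, and the interaction for translational efficiency to all 18, with the lysate as a block, since the methods state that both libraries share a lysate (the labels' extraction text describes direct lysis for RNA instead). Deviations of the assays within a lysate correlated at -0.0795 to 0.136. SE is on the log2 scale. Alternatives included DESeq2 1.42.0. Named genes were all members, and up to 8 other complement genes with the largest changes among those called with at least 5 CPM. Some genes that these rules name are not reported here. Coding lengths came from GENCODE, since protein lengths were not used here. In simulated data with 200 genes changed 2-fold in ICM against young, 94% were recovered in mRNA-seq (13002 genes), 35% in Ribo-seq (4231 genes) and 41% for efficiency (4179 genes). False calls were 4, 6 and 0, in the same order. In the data 71.0% of genes were called in mRNA-seq and 26.6% in Ribo-seq, so recovery in the tests above may differ. Permutation tests and binomial intervals used SciPy 1.17.1. For expression values, a count of 0 allows up to 3 counts.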

Additional observations from a re-analysis of the deposited data

Results flagged for a closer look

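Footprints outside the CDS enter none of the comparisons above. CD59 had 90 footprints in its 3′ UTR over the old libraries, 4.19% of its footprints, and 7 over the ICM libraries, 7.45%, against 14, or 0.936%, in young, which drew attention because the share was above that of the young libraries. By library the share was 8.33%, 0.771% and 0.832% in young, 3.13%, 27.0% and 4.23% in old, and 6.12%, 4.00% and 15.0% in ICM. The share over all coding genes was 12.4%, 1.94% and 1.40% in young, 3.51%, 14.8% and 4.90% in old, and 1.77%, 2.29% and 3.10% in ICM. The old values thus moved with the libraries as a whole, while the ICM values of CD59 were above those of all genes but rest on 3, 1 and 3 reads.

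CD59 footprints in the 5′ UTR were 1.16% of its total in old (25 reads), above 0.803% in young. By library the share was 4.17%, 1.54% and 0.462% in young and 1.38%, 1.35% and 0.423% in old, so old was not above young library by library, and the share over all coding genes was 10.2%, 3.70% and 2.78% in young and 4.89%, 44.7% and 13.8% in old. For CD46 the 3′ UTR held 1.80% of its footprints in old (10 reads), with 0 reads in young. No test was run on these shares. C1S had the opposite direction in its 5′ UTR, with 27 footprints (3.16%) in young, 5 (0.715%) in old and 0 in ICM.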

How the results depend on the processing

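In mRNA-seq no member changed direction under any alternative run, and 339 of 359 member values kept their direction and their side of the threshold, 17 lost a call and 3 gained one. When mRNA reads were thinned to the depth of the footprint libraries, only 6 of the 9 members were tested in each comparison. Of these 6, 4 were called in ICM against young, 5 in old against young and 2 in ICM against old. In Ribo-seq 183 of 237 kept both, 37 lost a call, 2 gained one and 15 changed direction, and for efficiency the counts were 218, 0, 4 and 21 of 243. The causes were not tested.

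Members called in Ribo-seq fell from 3 to 1 in ICM against young (DESeq2, no filter, replicate block, or thinned to the shallowest library), from 4 to 2 in old against young (DESeq2 or replicate block) and to 1 when thinned, and from 2 to 1 in ICM against old (DESeq2, no filter or thinned). Thinning left only 4 members that could be tested. For efficiency 1 member, CD59, was called in ICM against young at an adjusted p under 0.15, without the replicate block, and without young replicate 1 and old replicate 2. Leaving out 1 library gave 1 to 4 members called in Ribo-seq for ICM against young, 1 to 4 for old against young and 1 to 2 for ICM against old, 8 to 9, 8 to 9 and 7 to 8 in mRNA-seq, and 0 to 1, 0 and 0 for efficiency.

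Directions changed in Ribo-seq for CD46 in ICM against old (no filter -0.090, replicate block -0.017, thinned -0.38, without young replicate 1 and old replicate 2 -0.024) and in ICM against young (thinned -0.030), and in old against young for C1S (mean of at least 50 counts -0.018, thinned -0.026) and CD55 (replicate block -0.16). For efficiency they changed in ICM against old for CD55 (DESeq2 -0.079), in ICM against young for C1R (no filter -0.061, without both libraries -0.029), C1S (no filter -0.11, without both -0.064) and CD55 (DESeq2 -0.36, no filter -0.030), and in old against young for CD55 (without both 0.0073, against -0.46 at the lowest without 1 library). None of these had a call to lose except CD46 in ICM against young.

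Values that crossed 0 when 1 library was left out ranged as follows. In Ribo-seq, CD46 ran from -0.28 to 0.26 and CD55 from -0.71 to 0.74 in ICM against old, CD55 from -0.48 to 0.91 in ICM against young, and C1S from -0.14 to 0.14 and CD55 from -0.10 to 0.26 in old against young (0.30 without young replicate 1 and old replicate 2). For efficiency in ICM against old, C1R ran from -0.65 to 0.15, SERPING1 from -0.45 to 0.054, CD46 from -0.046 to 0.50 and CD55 from -0.99 to 0.50. In ICM against young C1R ran from -0.35 to 0.41, C1S from -0.48 to 0.22, SERPING1 from -0.21 to 0.42, CD46 from -0.52 to 0.035 and CD55 from -1.08 to 0.36.

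Replicate numbers did not pair the conditions (deviations of same-numbered libraries correlated at -0.0555 to 0.103), and with the replicate block 9, 8 and 8 members were called in mRNA-seq, in the order ICM against young, old against young and ICM against old, and 1, 2 and 2 in Ribo-seq. The C1R to C1S ratio from CDS reads was added after the data were seen. Depth limits the ICM footprints most: 3 counts were 13.3, 38.0 and 64.9 CPM in ICM replicates 1, 2 and 3.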
